A study of Mus musculus with 8 samples.

Results

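The connexins and pannexins of the retina were followed through the 15 probe sets of 8 genes, chosen by annotated symbol from 45037 tested probe sets: Gja1, Gjb2, Gjb6, Gjc1, Gjd2, Gja10, Panx1 and Panx2. A probe set is a group of short probes against 1 transcript, and 6 of the 15 belonged to Gja1, 2 each to Gjc1 and Gjd2, and 1 to each of the other members. Retinas of adult C57BL/6J mice, 80 to 120 days old and reared in dim cyclic light, were taken at day 0 in normal oxygen (control) or after 3, 7 or 14 days in 75% oxygen (hyperoxia), with 2 arrays at each of the 4 times. Retinas of both sexes were pooled at each time, nothing states that the paired arrays were separate pools, and the p-values therefore measure a spread that may be technical. The deposited values are log2 signals centred on the median of each probe set over the 8 arrays, so a value is a difference from that median and not a level, levels of different genes cannot be compared, and whether the defining markers of retina are present could not be checked. In pooled tissue, fewer cells of a type and less RNA per cell cannot be told apart.

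Connexins assemble into channels that join the cytoplasm of neighbouring cells at gap junctions, and the type of connexin that a cell makes sets which partners it can couple to. In the retina, Cx36 carries electrical coupling between photoreceptors and among AII amacrine cells, the interneurons that pass rod signals to the cone pathway, while Cx43 couples astrocytes, pigment epithelium, and cells of the ciliary body and vessels. Pannexins share the fold of connexins but act mainly as channels to the outside of the cell, and Panx1 is best known for releasing ATP.

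The 300 bases around the annotated start of 3 members are shown because their probe sets followed 3 different patterns over the arrays: Gja1 (gene encoding Cx43, chr10:56377050-56377349, + strand), Gjd2 (Cx36, chr2:114013570-114013869, - strand) and Panx1 (chr9:15045429-15045728, - strand). The sequences are from RefSeq, mouse build GRCm38.p6, and run 5′ to 3′ on the strand of the gene, with 250 bases before the start and 50 after it. Capitals mark TGAGTCA, a match to the AP-1 motif TGANTCA, in Gja1, and TGACG, the core of the cAMP response element, in Gjd2; in Panx1 this core lies on the opposite strand and reads CGTCA.
Gja1: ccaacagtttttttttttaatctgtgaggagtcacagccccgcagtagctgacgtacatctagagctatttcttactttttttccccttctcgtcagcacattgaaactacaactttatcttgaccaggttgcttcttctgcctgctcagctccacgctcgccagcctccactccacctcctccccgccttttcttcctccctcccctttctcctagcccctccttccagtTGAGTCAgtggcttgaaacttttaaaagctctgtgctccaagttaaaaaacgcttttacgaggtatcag
Gjd2: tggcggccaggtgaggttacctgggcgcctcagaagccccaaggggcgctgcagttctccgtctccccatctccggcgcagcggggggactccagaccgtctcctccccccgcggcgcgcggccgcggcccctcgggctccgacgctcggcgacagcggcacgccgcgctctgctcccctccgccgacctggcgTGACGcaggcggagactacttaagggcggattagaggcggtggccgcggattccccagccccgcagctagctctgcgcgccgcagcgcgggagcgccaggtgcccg
Panx1: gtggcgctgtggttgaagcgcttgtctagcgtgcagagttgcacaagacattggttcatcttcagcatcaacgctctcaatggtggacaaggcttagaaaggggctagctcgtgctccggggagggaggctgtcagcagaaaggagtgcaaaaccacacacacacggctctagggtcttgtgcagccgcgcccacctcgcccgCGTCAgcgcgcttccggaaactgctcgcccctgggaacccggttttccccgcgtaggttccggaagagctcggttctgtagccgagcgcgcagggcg
The marked site starts at position -19 from the start in Gja1, -56 in Gjd2 and -47 in Panx1. Of the 32851 promoters in the table, 7.81% hold TGANTCA and 20.8% hold TGACG on either strand. Promoters were matched for 6 of the 8 members, and TGACG was found in 5 of those 6 (Gja1, Gjb2, Gjd2, Gja10 and Panx1). The GC box GGGCGG was found in Gjb2 and Gjd2 (35.7% of all promoters), and TATAAA in Gja10 (13.6%). No match to the hypoxia response core ACGTG (19.6% of all promoters), to TTCNNNGAA (8.3%) or to the full element TGACGTCA (1.79%) was found in the 6 promoters. The GC content was 47.7% for Gja1, 61.3% for Panx1 and 75.0% for Gjd2, against a median of 52.7% over all promoters. A match describes the sequence only.

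Some arrays stood apart from their labels. The replicate 2 arrays of days 3 and 14 were the closest of the 28 pairs of arrays, whereas the 2 arrays of the same time ranked between 5 and 14 among the pairs, and only 1 array had its own replicate as its nearest neighbour. On these 2 arrays the 3′ minus 5′ difference of Gapdh, which follows the intactness of the RNA and its labeling, was 1.19 and 1.43 (log2), against -0.32 to 0.12 on the other 6. The study's own quality measures, by contrast, place the raised Gapdh ratio on the arrays of the last time only. Whether the labels of 2 arrays were exchanged was not tested and could not be settled here, so every day 3 and day 14 value holds only for the labels as deposited. Arrays are named by those labels, and the differences of members and named partner genes that rest on these 2 arrays are also given without them.

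No member passed the test at any time. With limma (4 group means over all 8 arrays, Benjamini-Hochberg over 45037 probe sets), 0 of 15 member probe sets passed an adjusted p of 0.05 at day 3, day 7 or day 14 against control, and 0.0% of all probe sets passed at each time. The lowest adjusted p of a member in limma was 0.471 at day 3, 1.0 at day 7 and 0.594 at day 14. At an unadjusted p under 0.05 there was 1 member probe set at day 3 (10.3% of all probe sets), 0 at day 7 (0.864%) and 1 at day 14 (8.27%), and it was Gjc1 1449094_at both times. An exact permutation test of 2 arrays against 2 cannot give a p below 0.333. In the test for any difference between the 4 times (limma's F), 0 members passed (0.0% of all probe sets), with a lowest adjusted p of 0.6, and 1 had an unadjusted p under 0.05 (8.09%). By a plain one-way analysis of variance on the deposited values of all probe sets, which leaves out the cross gene error model and the fold preselection of the methods, and without adjustment, 1 member was under 0.05 at day 3 (Gjc1 1449094_at; 6.65% of all), 1 at day 7 (Panx2 1440350_at; 3.03%) and 0 at day 14 (7.23%), and 0 passed after adjustment at any time (0.00444% of all probe sets at day 14).

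The members varied widely from array to array. The median SD over the 8 arrays was 0.36 for the 15 probe sets and 0.21 for all probe sets. An SD of 1 or more was found in 4 of the 15, all of Gja1, and in 440 of all probe sets (0.977%). For the median member, 53.2% of the variance lay between the 2 arrays of the same time, the same as for the median of all probe sets (53.2%), where 57.1% is the share that the degrees of freedom would give in the absence of any difference between times. That share was lowest for Gjc1 1449094_at (19.4%) and Panx2 (26.2%), and highest for Gjc1 1447787_x_at (97.6%), Gja10 (93.2%) and Gja1 1415801_at (90.9%).

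**Figure D1:**
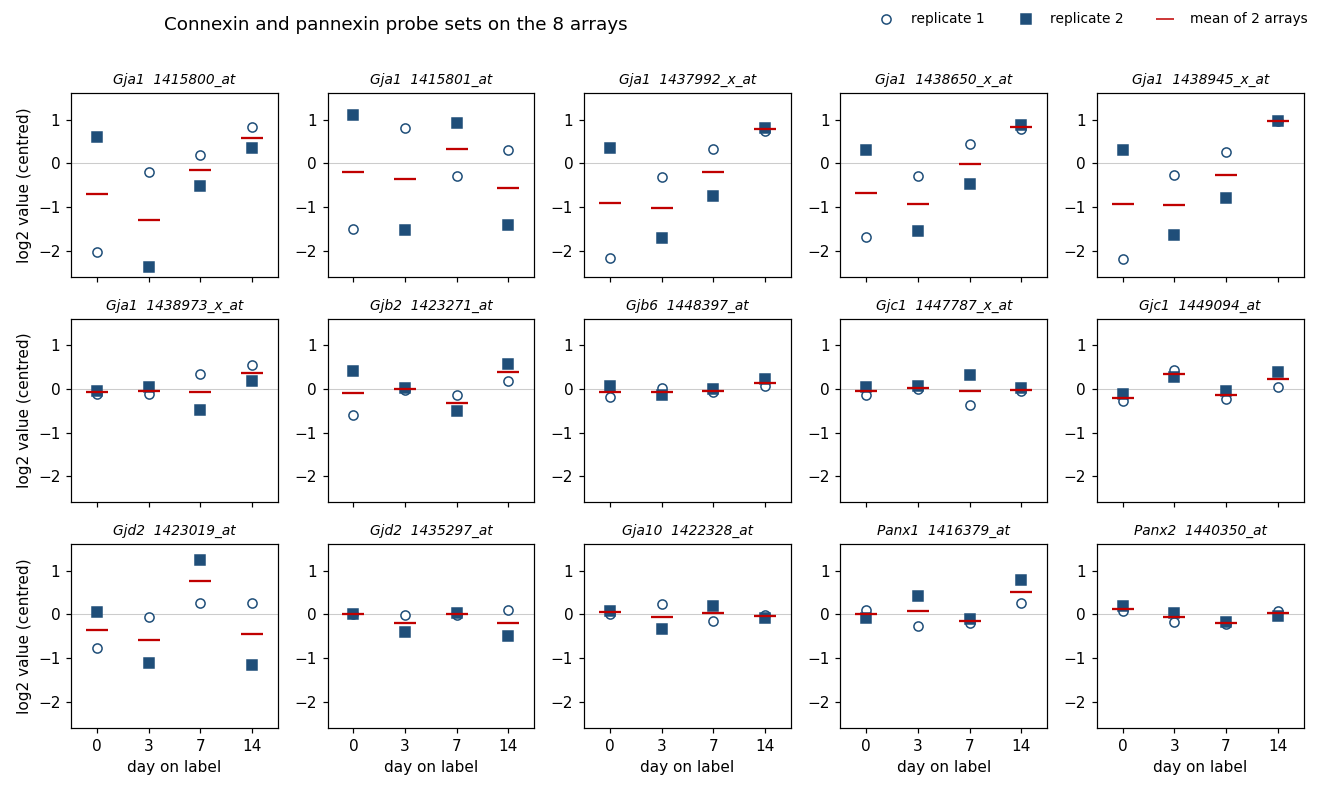
Centred log2 value (y axis) of each of the 15 member probe sets over the 8 arrays (x axis, labelled day); open circles are replicate 1, filled squares replicate 2 and red bars the mean of 2 arrays. The Gja1 control arrays lie 2.65 apart in 1415800_at, more than the range of the 4 means (1.88), whereas Gjb6 and Panx2 stay within 0.25 of the median on all arrays.

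Gja1, the gene for Cx43, had the largest differences among the members at days 3 and 14, and the largest gaps between arrays of the same time. The values of 1415800_at, its probe set with the largest SD (1.20), were -2.04 and 0.61 in control, -0.20 and -2.38 after 3 days, 0.20 and -0.51 after 7 days and 0.83 and 0.35 after 14 days. The 2 low arrays, the control replicate 1 and the day 3 replicate 2 array, stood apart from the other 6, and the day 14 arrays overlapped the controls. The order of the means was day 3 (-1.29), day 0 (-0.71), day 7 (-0.15) and day 14 (0.59), and the arrays of each neighbouring pair in this order overlapped except those of day 7 and day 14. The difference from control was -0.58 ± 0.97 at day 3, 0.56 ± 0.97 at day 7 and 1.30 ± 0.97 at day 14 (log2 ± SE, n = 2 arrays each; limma adjusted p = 0.851, 1.0 and 0.729).

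The probe sets 1437992_x_at, 1438650_x_at and 1438945_x_at of Gja1 gave nearly the same profile. The suffix _x_at marks probe sets with probes that may also bind other transcripts. On 1438945_x_at the values were -2.19 and 0.31 in control, -0.27 and -1.65 after 3 days, 0.27 and -0.80 after 7 days and 0.97 and 0.98 after 14 days. Here both day 14 arrays lay above both control arrays, which differed from each other by 2.51. The difference at day 14 was 1.92 ± 0.84 (adjusted p = 0.617, limma), and it was 1.69 ± 0.84 for 1437992_x_at (adjusted p = 0.645) and 1.52 ± 0.70 for 1438650_x_at (adjusted p = 0.627). These 3 and 1415800_at were the 4 member probe sets that differed by 2-fold or more at day 14 (all higher; 0.271% of all probe sets were higher by that much). They correlated with each other at r of 0.94 or more over the 8 arrays, so they count as 1 transcript measured repeatedly.

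The size of the Gja1 difference depended on which control array was kept, since the 2 controls lay far apart. Without the control replicate 1, the day 14 difference was -0.02 for 1415800_at, 0.43 for 1437992_x_at, 0.53 for 1438650_x_at and 0.66 for 1438945_x_at, and without the control replicate 2 it was 2.62, 2.94, 2.51 and 3.17. At day 7, the same 4 probe sets differed from control by 0.56 to 0.70 with all arrays and by -0.77 to -0.31 without the control replicate 1. At day 3, the difference of -0.58 for 1415800_at became 0.51 without the day 3 replicate 2 array.

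The other 2 Gja1 probe sets followed different profiles. On 1415801_at the values were -1.51 and 1.11 in control, 0.82 and -1.53 after 3 days, -0.30 and 0.93 after 7 days and 0.30 and -1.42 after 14 days. Every time but day 7 held 1 array above 0 and another near or below -1.4, and all 4 times overlapped. Its correlation with the 4 probe sets above was 0.38 to 0.60, against 0.83 with Gjd2 1423019_at and 0.74 with Gja10. On 1438973_x_at (SD 0.31), the arrays ranged from -0.48 at day 7 replicate 2 to 0.54 at day 14 replicate 1. Both its day 14 arrays (0.54 and 0.18) lay above both controls (-0.12 and -0.04), a difference of 0.44 ± 0.27 (limma adjusted p = 0.691). Which part of the transcript each Gja1 probe set binds was not analysed here.

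The genes whose pattern over the 8 arrays was most like Gja1 1415800_at were Slc4a4, a sodium bicarbonate cotransporter (r = 0.99), Tyrp1, an enzyme of melanin synthesis (2 probe sets, r = 0.97 and 0.96), Dcn, a matrix proteoglycan (r = 0.97), and Fbln1, a matrix glycoprotein (r = 0.96). Of 11504 candidate probe sets with an SD of 0.3 or more, 19 had r of 0.9 or more. On Tyrp1 1415861_at the values were -1.84 and 1.19 in control, -0.48 and -2.49 after 3 days, 0.48 and -0.80 after 7 days and 0.98 and 1.02 after 14 days, low on the same 2 arrays as Gja1. Without these 2 arrays the correlation over the remaining 6 was 0.94 for both Slc4a4 and Tyrp1 1415861_at, 0.91 for Dcn, 0.89 for Fbln1 and 0.82 for the other Tyrp1 probe set, 1415862_at. All the points share 8 arrays, and the correlations describe these arrays only.

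The markers of the retinal pigment epithelium divided into those that followed Gja1 1415800_at and those that did not. Of the 12 listed genes, the 5 that act in pigment cells at large (Tyr, Tyrp1, Dct, Pmel and Mlana) correlated with Gja1 1415800_at at r = 0.90 to 0.98. Without the control replicate 1 and the day 3 replicate 2 array, r was 0.97 for Tyrp1, 0.86 for Mlana, 0.82 for Pmel, 0.80 for Dct and 0.47 for Tyr. Of the rest, Rpe65, Rgr, Rdh5 and Lrat, which serve the visual cycle in the pigment epithelium, had r = -0.01 to 0.15. Best1 had r = 0.01, Ttr 0.16 and Rrh 0.40. The probe sets 1437992_x_at, 1438650_x_at and 1438945_x_at of Gja1 had r of 0.7 or more with the same 5 genes. On 1415801_at only Rrh reached 0.7, and on 1438973_x_at 0 of the 12 did. Rpe65 had its highest value on the day 7 replicate 2 array (1.94), where Gja1 1415800_at was at -0.51 and Tyrp1, as the mean of its probe sets, at -0.54. The grouping of these markers into 5 and 7 was made after their values were seen. The median of all 12 markers was -0.36 and -0.78 after 3 days, -0.12 and 0.49 after 7 days and 0.71 and 0.22 after 14 days, against -0.19 and -0.01 in control. The list median of 7 ciliary body and iris genes correlated with Gja1 1415800_at at r = 0.80. Singly, these 7 genes had r from 0.11 to 0.71, with a median of 0.47, and only 1 (Myh11) reached 0.7. No list holds a level, so no marker could be called absent, and the part of pigmented tissue in the Gja1 values was not tested.

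**Figure D2:**
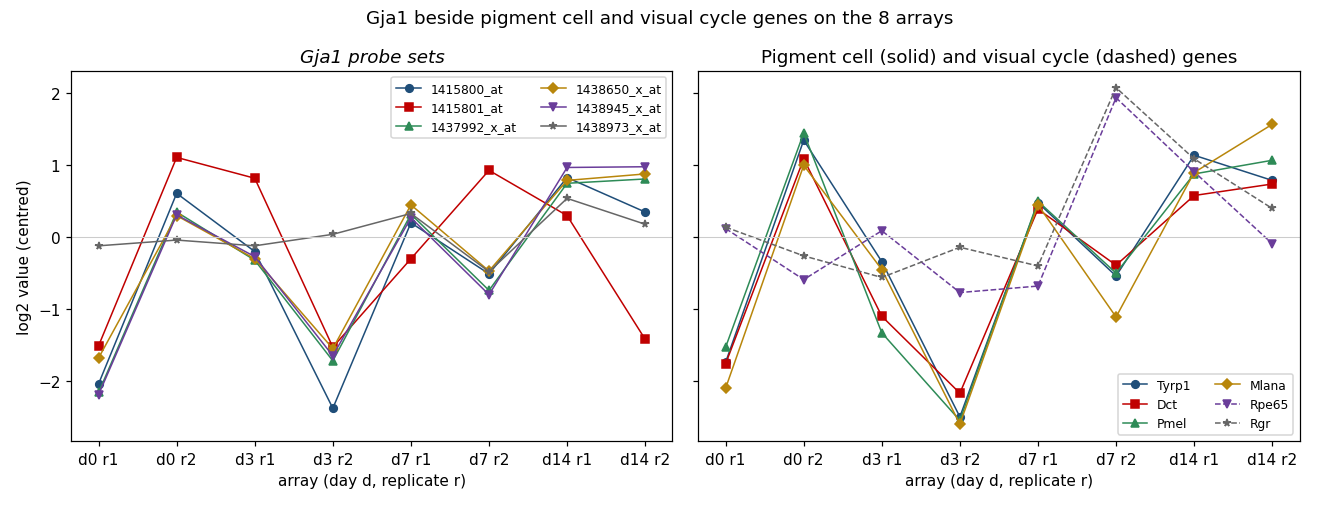
Centred log2 values (y axis) on the 8 arrays (x axis, d for day and r for replicate) of the 6 Gja1 probe sets (left) and of 6 marker genes, as means of their probe sets (right); solid lines are genes of pigment cells and dashed lines genes of the visual cycle. Tyrp1 (-1.74 on day 0 replicate 1 and -2.50 on day 3 replicate 2) dips where Gja1 1415800_at does (-2.04 and -2.38), whereas Rpe65 and Rgr peak on day 7 replicate 2 (1.94 and 2.08).

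Gjb2 and Gjb6, the genes for Cx26 and Cx30, which lie next to each other on chromosome 14, varied less than Gja1. Gjb2 had -0.61 and 0.41 in control, -0.03 and 0.03 after 3 days, -0.14 and -0.50 after 7 days and 0.18 and 0.57 after 14 days, so that the control arrays spanned nearly the whole range. The differences from control were 0.10, -0.22 and 0.48 (± 0.34) at days 3, 7 and 14 (limma adjusted p = 0.931, 1.0 and 0.716). Gjb6, an astrocyte connexin, stayed between -0.19 and 0.22 on all arrays, with differences of 0.00, 0.02 and 0.21 (± 0.15) and adjusted p of 0.999, 1.0 and 0.718. Both followed Gja1 in part, with r = 0.67 to 0.74 for Gjb2 and 0.83 to 0.85 for Gjb6 against the 3 similar _x_at probe sets of Gja1. The probe sets most like Gjb2 were those of Tlcd1, Emp3 and Otx1 (r = 0.95, 0.93 and 0.92), and those most like Gjb6 were Trpm1, the channel of ON bipolar cells that is also made in pigment cells (r = 0.97), Epb41l4b (0.95) and Postn (0.95).

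Gjd2 encodes Cx36, the main neuronal connexin of the retina. On 1423019_at the values were -0.78 and 0.06 in control, -0.06 and -1.12 after 3 days, 0.26 and 1.25 after 7 days and 0.25 and -1.15 after 14 days. Both day 7 arrays lay above both control arrays, and the lowest 2 arrays were the pair that stood apart in the Gapdh ends. The difference was 1.12 ± 0.61 at day 7, the only one of 15 members to reach 2-fold at that time (0.209% of all probe sets were higher by that much; at day 3 the counts were 0 of 15 and 0.429%), with an adjusted p of 1.0 in limma. At day 3 it was -0.22 ± 0.61 and at day 14 -0.08 ± 0.61 (adjusted p = 0.915 and 0.976), and without the 2 arrays that stood apart these became 0.31 and 0.62. A further quantile normalization gave 0.13 and 0.41. The day 7 difference was 0.63 without the day 7 replicate 2 array.

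The second Gjd2 probe set, 1435297_at, was between -0.01 and 0.09 on 6 arrays. It was at -0.40 on the day 3 replicate 2 array and -0.50 on the day 14 replicate 2 array. Both Gjd2 probe sets thus had these 2 arrays below all the other 6, an order seen in 9.59% of all probe sets. The day 7 difference was 0.00 ± 0.22 in 1435297_at.

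Amacrine and lens markers were among those that moved with Gjd2 1423019_at. The median of the amacrine list (9 measured genes without Gjd2) correlated with it at r = 0.87 (rho 0.79), and 0.77 without the 2 arrays farthest from the median of the list. Singly, 5 of the 9 genes (Gad1, Slc6a9, Tfap2b, Dab1 and Pax6) reached r of 0.7, and the lowest r was -0.49. The median of 15 lens genes correlated with it at r = 0.81, and 0.53 without the day 7 arrays, where the lens genes were at 1.91 and 3.48, against -1.66 and 1.77 in control. All 15 lens genes lay 2-fold or more above control at day 7, against 0.258% of all genes that differed by that much in either direction, and 0 passed the adjusted test. Medians of other lists were nearly as close to Gjd2 1423019_at. The r was 0.79 for 8 bipolar cell genes (3 reached 0.7) and 0.73 for 12 Müller cell genes (6 reached 0.7). For 11 genes of microglia and macrophages it was -0.75. How many of all genes reach r of 0.7 with Gjd2 was not counted, so the counts of single genes have no background. The part of lens fibre tissue, of amacrine cells or of any other cell type in the Gjd2 value was not tested. By Pearson's r, the probe set most like Gjd2 1423019_at was that of Ankmy2 (0.98). Cflar, a regulator of caspases, and Apaf1, the scaffold of the apoptosome, followed (0.97 each), out of 197 with r of 0.9 or more. By rho, Ankmy2, Cflar and Apaf1 ranked only 151, 15 and 289.

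Gjc1 encodes Cx45, which in mouse retina joins cone bipolar cells to AII amacrine cells. On 1449094_at the values were -0.28 and -0.12 in control, 0.43 and 0.26 after 3 days, -0.24 and -0.05 after 7 days and 0.05 and 0.39 after 14 days. The day 3 and the day 14 arrays all lay above both control arrays, and the day 7 arrays overlapped the controls. It was the only member with both day 3 arrays above both controls (24.7% of all probe sets had this order). The difference was 0.55 ± 0.17 at day 3 (limma adjusted p = 0.471), 0.05 ± 0.17 at day 7 (adjusted p = 1.0) and 0.42 ± 0.17 at day 14 (adjusted p = 0.594). The day 3 difference ranged from 0.46 to 0.63 with any 1 array left out and was 0.63 without the 2 arrays that stood apart, where the day 14 difference was 0.25. The other Gjc1 probe set, 1447787_x_at, differed from control by 0.08, 0.01 and 0.03 (± 0.23) at the 3 times.

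Immune markers were among those that moved with Gjc1 1449094_at. Over the 8 arrays, 9 of the 11 measured genes of microglia and macrophages had r of 0.7 or more with it, and their list median had r = 0.78 (0.86 without the replicate 2 arrays of days 3 and 14). The list median was 0.31 and 1.15 after 3 days, -0.22 and -0.21 after 7 days and 0.06 and 1.13 after 14 days, against -0.11 and -0.29 in control. The medians of the rod and Müller cell lists had r = -0.87 each (rho -0.57 for rods and -0.81 for Müller cells), and -0.66 and -0.78 without the 2 arrays farthest from the median of the list. Of the 8 rod genes 1, Prph2, had r = 0.77. The median of 8 bipolar cell genes had r = -0.71. That of 9 ganglion cell genes had r = 0.75, with 2 of them at 0.7 or more. The share of all genes at r of 0.7 or more was not counted, so these counts have no background. The probe set most like Gjc1 1449094_at was that of B2m, the light chain of MHC class I (r = 0.99), out of 74 with r of 0.9 or more. B2m had -0.50 and -0.18 in control, 0.85 and 0.38 after 3 days, -0.32 and -0.21 after 7 days and 0.18 and 0.69 after 14 days. Slc35f4 and Cfap126 followed (r = 0.97 each). The part of immune cells or of any other cell type in the Gjc1 value was not tested.

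Gja10, the gene for Cx57 of mouse horizontal cells, differed less between times than, on average, between arrays of the same time. Its values were 0.01 and 0.08 in control, 0.23 and -0.34 after 3 days, -0.15 and 0.20 after 7 days and -0.01 and -0.08 after 14 days. The range of the 4 means was 0.11, and the average gap between arrays of the same time was 0.27. In control and at day 14 that gap was 0.07, and both day 14 arrays lay below both controls (18.3% of all probe sets). The differences were -0.11, -0.02 and -0.09 (± 0.22), with limma adjusted p from 0.884 to 1.0. The probe sets most like Gja10 by Pearson's r were those of Zfp444 (r = 0.98), Gtpbp1 (0.97) and Stambp (0.97), out of 93 with r of 0.9 or more. By rho, Zfp444, Gtpbp1 and Stambp ranked only 60, 126 and 20. The median of 8 horizontal cell genes stayed between -0.05 and 0.11 on all arrays, but single genes varied more. Prox1 ran from -0.72 (day 14 replicate 2) to 1.02 (day 7 replicate 2), and Onecut2 from -0.33 (day 14 replicate 2) to 0.44 (control replicate 1). At day 14, 7 of the 8 lay below control and 1 above. Their median difference was -0.1, against 0.08 for all genes, and 0 passed the adjusted test.

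Panx1 stood highest on 2 arrays of different times. Its values were 0.09 and -0.09 in control, -0.26 and 0.41 after 3 days, -0.21 and -0.11 after 7 days and 0.25 and 0.79 after 14 days. The 2 highest arrays, day 14 replicate 2 and day 3 replicate 2, lay above all the other 6, an order seen in 16.0% of all probe sets, and both day 14 arrays lay above both controls. The difference from control was 0.07 ± 0.27 at day 3, -0.16 ± 0.27 at day 7 and 0.52 ± 0.27 at day 14 (limma adjusted p = 0.938, 1.0 and 0.651). Without these 2 arrays the day 14 difference was 0.25 and the day 3 difference -0.26.

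Markers of glial stress and the Gapdh ends were among those that moved with Panx1. Its correlation with the Gapdh end difference was r = 0.89 (rho 0.69), and 0.49 over the 6 arrays without that pair. With the median of 10 genes of reactive glia it was 0.85, and 0.44 over these 6 arrays, and with that of the microglia list 0.79 and -0.03. Neuronal lists were as close in the other direction. The median of 8 bipolar cell genes had r = -0.86, and -0.34 over these 6 arrays, and that of 7 cone genes had r = -0.75 over all 8. The list of reactive glia, which includes Gfap, Cebpd and Serpina3n, had a median of 1.34 on the day 3 replicate 2 array and 1.22 on day 14 replicate 2, and between -0.37 and 0.25 elsewhere. The probe sets most like Panx1 were those of Abtb2, Wnk4 and Ajm1 (r = 0.99 each), out of 148 with r of 0.9 or more. The part of RNA quality, glial stress, immune cells or any other cell type in the Panx1 value was not tested.

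**Figure D3:**
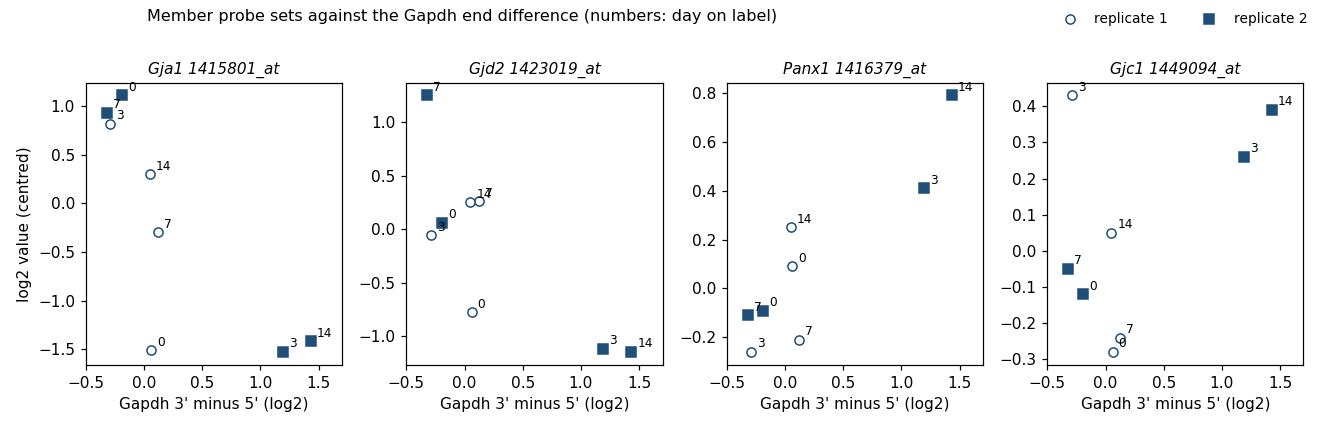
Centred log2 values (y axis) of 4 member probe sets against the 3′ minus 5′ difference of Gapdh (x axis, log2), 1 point per array; open circles are replicate 1, filled squares replicate 2, and numbers give the day on the label. The replicate 2 arrays of days 3 and 14 (1.19 and 1.43) are the lowest for Gjd2 1423019_at and the highest for Panx1, and over all 8 arrays r is -0.79 for Gja1 1415801_at and Gjd2 1423019_at, 0.89 for Panx1 and 0.48 for Gjc1.

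For Gjd2, Gja10 and Gja1 1415801_at the relation to the Gapdh ends was negative over the 8 arrays. It was r = -0.95 for Gjd2 1435297_at, -0.79 for Gjd2 1423019_at, -0.79 for Gja1 1415801_at and -0.77 for Gja10, and over the 6 arrays without that pair 0.17, -0.49, -0.75 and -0.94. The Gja1 probe sets that followed Tyrp1 had r between -0.26 and 0.05, and Gja1 1438973_x_at had 0.33. Gjc1 1449094_at had r = 0.48, and -0.59 without that pair, and Panx2 had 0.17. The part of RNA quality in any of these values was not tested.

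Panx2, a pannexin of the nervous system, had the lowest share of variance within times after Gjc1 1449094_at. Its values were 0.07 and 0.18 in control, -0.18 and 0.04 after 3 days, -0.23 and -0.18 after 7 days and 0.08 and -0.04 after 14 days. Both day 3 and both day 7 arrays lay below both controls, as did 2 of 15 members at each of these times (17.8% and 12.3% of all probe sets). The difference was -0.19 ± 0.14 at day 3, -0.33 ± 0.14 at day 7 (limma adjusted p = 1.0) and -0.11 ± 0.14 at day 14. The probe sets most like it belonged to the surface epithelial genes Upk1b (r = 0.91), Trim29 (0.87) and Muc4 (0.87). The median of 10 cornea and surface epithelium genes had r = 0.75 with Panx2, and 0.43 without the 2 arrays farthest from its median. That list was at -1.04 and -0.84 after 3 days, -0.06 and -0.76 after 7 days and 1.43 and 0.11 after 14 days, against 0.86 and 2.02 in control, and the part of surface epithelium in the Panx2 value was not tested.

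Counted over the members, both arrays lay above both controls in 1 of 15 probe sets at day 3, 1 at day 7 (Gjd2 1423019_at; 12.3% of all probe sets) and 7 at day 14 (27.7%), 4 of the 7 being of Gja1. The others were Gjb6, Gjc1 1449094_at and Panx1. Both arrays lay below both controls in 2 at day 3 (Gjd2 1435297_at and Panx2), 2 at day 7 (Panx1 and Panx2) and 1 at day 14 (Gja10; 18.3%). The median difference of the 15 was -0.11 at day 3, 0.02 at day 7 and 0.42 at day 14, against 0.04, 0.0 and 0.05 for all probe sets. Since 6 of the 15 measure Gja1, the median was also taken over the 8 genes, with each gene as the mean of its probe sets, and was then -0.05, 0.00 and 0.22, against 0.06, -0.01 and 0.08 for all 18193 genes.

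**Figure D4:**
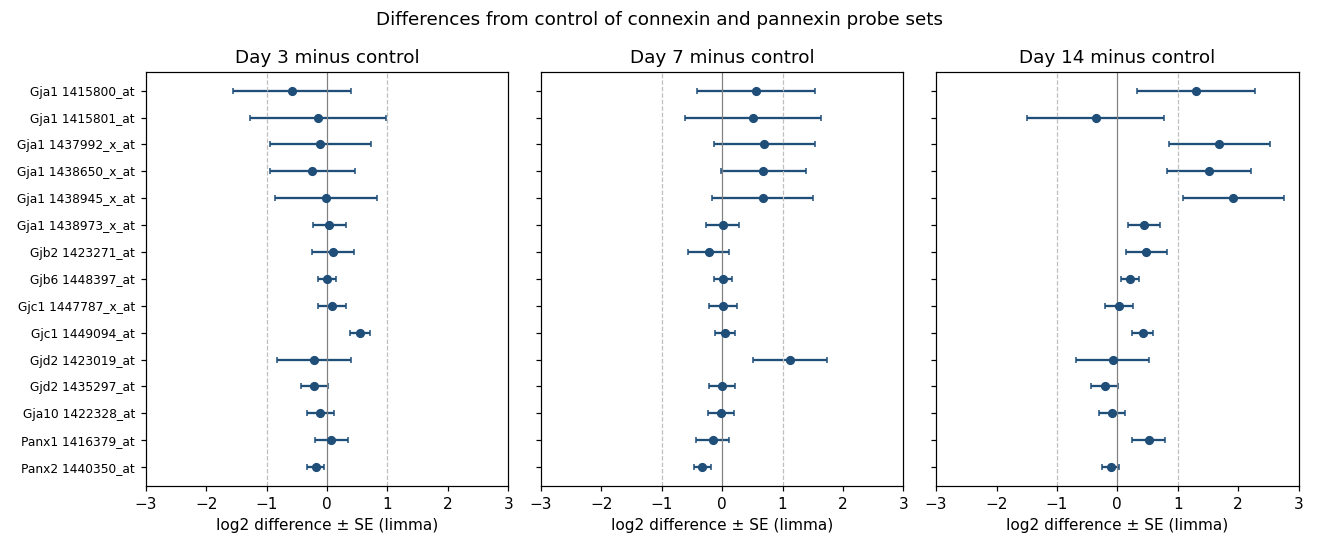
Difference from control (x axis, log2, limma, with bars of 1 SE; n = 2 arrays each) of the 15 member probe sets (rows) at day 3, day 7 and day 14; dashed lines mark 2-fold. At day 14 the 4 similar Gja1 probe sets lie between 1.30 and 1.92 with SE of 0.70 to 0.97, and no point passed the adjusted test.

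The rest of the connexin family gave a single difference of that size. Of 15 other listed genes (14 connexins and Panx3), 9 were measured by 14 probe sets, and 0 passed the adjusted test at any time in limma. At an unadjusted p under 0.05 there were 0 at days 3, 7 and 14 (10.3%, 0.864% and 8.27% of all probe sets). Over gene means there were 0, 0 and 1 (11.0%, 0.797% and 8.01% of all genes). Gja3, a connexin of lens fibres, had 2.38 and 1.11 at day 7 against -0.28 and 1.27 in control on 1439793_at, a difference of 1.25 ± 0.57 (adjusted p = 1.0) whose arrays overlapped. Its other probe set differed by 0.18 ± 0.23.

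The partners of gap junctions were read from a list of 22 scaffold, trafficking and kinase genes, of which 18 were measured, as means of their probe sets. In limma over 18193 genes 0 passed the adjusted test (0.0% of all genes), and 4 had an unadjusted p under 0.05 at day 3 (11.0% of all genes), 1 at day 7 (0.797%) and 4 at day 14 (8.01%). Tjp1, the scaffold ZO-1 that binds the tails of Cx43 and Cx36, differed by -0.63 at day 3, 0.21 at day 7 and -0.85 at day 14 (± 0.22; adjusted p = 0.427, 1.0 and 0.595). Prkca, a kinase that is also the marker of rod bipolar cells, differed by -0.75, 0.06 and -0.66 (± 0.22), and Tjp3, another scaffold of that family, by -0.57, -0.66 and -0.16 (± 0.18). Without the 2 arrays that stood apart, the day 3 and day 14 differences were -0.52 and -0.59 for Tjp1, -0.83 and -0.37 for Prkca, and -0.66 and -0.41 for Tjp3, each from 1 array against the controls. The median of 8 bipolar cell genes, which include Prkca, was -0.53 and -0.79 on the replicate 2 arrays of days 3 and 14, against -0.12 to 0.36 on the other 6.

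Of the genes of ATP release and purinergic signalling, the pathway that Panx1 feeds, 17 of 21 were measured. Again 0 passed the adjusted test, and 4, 0 and 4 had an unadjusted p under 0.05 at days 3, 7 and 14 (11.0%, 0.797% and 8.01% of all genes). The ATP receptor P2ry2 differed by 0.41, 0.04 and 0.36 (± 0.13), P2ry13, an ADP receptor of microglia, by 0.75, 0.05 and 0.59 (± 0.24), and the ATP-gated channel P2rx1 by 0.31, 0.01 and 0.36 (± 0.12), with adjusted p in limma of 0.427 to 0.433 at day 3 and 0.615 to 0.621 at day 14. Without the 2 arrays that stood apart, the day 3 and day 14 differences were 0.42 and 0.39 for P2ry2, 0.40 and 0.46 for P2ry13, and 0.27 and 0.38 for P2rx1.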

How the data were processed

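RNA of 8 mouse retina samples was measured on Affymetrix Mouse Genome arrays. The authors deposited log2 values computed by RMA (version not given in the sources used here), which corrects the background, equalizes the arrays and summarizes probes, and the values are centred on each probe set's median. The methods describe MAS5 values, which were not used. Of 45101 probe sets, 64 controls were set aside. No filter on low signal was possible. The number of arrays limits the precision. Gene symbols came from the platform annotation, and promoters from RefSeq (GRCm38.p6).

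Group means came from limma 3.58.1 under R 4.3.3 (lmFit and eBayes with 4 residual and 2.71 prior degrees of freedom) and p-values adjusted by Benjamini-Hochberg at 0.05. Summaries and figures used Python 3.11.15 with pandas 2.3.3, numpy 2.4.6 and scipy 1.17.1. The fit was tested on simulated data with 200 changed probe sets. A 2-fold change is a log2 difference of 1 or more. All members and their probe sets are named, of each list up to 3 genes with the smallest p (of other connexins, those reaching 2-fold), and the 5 probe sets most like Gja1 and 3 for each other member by Pearson's r. Members and lists were chosen with earlier results of these data known. There were 19 alternatives, among them a further quantile normalization, a replicate block, other fits, and leaving out arrays. The crossed block and the values of partner genes without 2 arrays were chosen after seeing the data, and so were the pigment, amacrine and glial genes named as examples of their lists outside this rule.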

Additional observations from a re-analysis of the deposited data

Results flagged for a closer look

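Panx1 1416379_at was singled out because its 2 day 14 arrays (0.25 and 0.79) both lay above both control arrays (0.09 and -0.09), whereas its 2 day 7 arrays (-0.21 and -0.11) both lay below them. The direct difference, day 14 minus day 7, was 0.69 on the log2 scale with an adjusted p of 0.473 in limma, so the opposite directions did not pass the test.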

How the results depend on the processing

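No member passed the adjusted test at any time under any alternative that gives a test; folds from linear means give none. The replicate block gave 0 members at each time, as did the block with the numbers of day 3 and day 14 crossed. Replicate numbers did not pair the arrays alike at all times. Deviations of same-numbered arrays correlated at 0.442 between control and day 7 and at 0.55 between day 3 and day 14. Between the other pairs of times they correlated at -0.396 to -0.224. The replicate block changed no call. Without the day 7 replicate 1 array, 1 of all probe sets passed at day 7, and it was no member. The number of members differing by 2-fold at day 3 was 1 without the 2 replicate 2 arrays of days 3 and 14, and 0 to 5 with 1 array left out. At day 7 it was 0 over gene means and 0 to 6 with 1 array left out. At day 14 it was 1 over gene means, 1 without _s_at and _x_at probe sets, and 1 to 5 with 1 array left out. The median at day 14 was 0.06 without those probe sets and -0.02 to 0.48 with 1 array left out (-0.02 without the control replicate 1). Each gene-mean count is over 8 genes. A single array remaining at a time was assumed to vary like the other groups.

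A further quantile normalization turned 7 of 45 differences: at day 3 Gja1 1437992_x_at (0.13), 1438650_x_at (0.03) and 1438945_x_at (0.22), Gjb6 (0.01) and Gjd2 1423019_at (0.13), at day 7 Gjc1 1447787_x_at (-0.14), and at day 14 Gjd2 1423019_at (0.41). Folds from linear means turned the last of these (0.02). Leaving out the replicate 2 arrays of days 3 and 14 turned 13: at day 3 the 6 Gja1 probe sets (0.51, 1.02, 0.58, 0.39, 0.67 and -0.04), Gjb6 (0.08), Gjd2 1423019_at (0.31), Gja10 (0.18) and Panx1 (-0.26), and at day 14 Gja1 1415801_at (0.50), Gjd2 1423019_at (0.62) and Gjd2 1435297_at (0.08). None of these passed the test on either side, and the cause was not tested.

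With 1 array left out, the sign turned for these ranges. At day 3 the Gja1 differences ran from -1.91 to 0.74 for 1415800_at, -1.47 to 1.16 for 1415801_at, -1.37 to 1.14 for 1437992_x_at, -1.23 to 0.76 for 1438650_x_at, -1.27 to 1.23 for 1438945_x_at and -0.04 to 0.12 for 1438973_x_at. Gjb2 ran from -0.41 to 0.61, Gjb6 from -0.12 to 0.12, Gjc1 1447787_x_at from -0.02 to 0.17, Gjd2 1423019_at from -0.75 to 0.31, Gja10 from -0.39 to 0.18 and Panx1 from -0.26 to 0.41. At day 7 Gja1 ran from -0.77 to 1.88 for 1415800_at, -0.80 to 1.83 for 1415801_at, -0.55 to 1.96 for 1437992_x_at, -0.31 to 1.67 for 1438650_x_at, -0.58 to 1.93 for 1438945_x_at and -0.40 to 0.41 for 1438973_x_at. Gjb2 ran from -0.73 to 0.29, Gjb6 from -0.10 to 0.14, Gjc1 1447787_x_at from -0.33 to 0.36, Gjc1 1449094_at from -0.04 to 0.15, Gjd2 1435297_at from -0.02 to 0.02 and Gja10 from -0.20 to 0.15. At day 14 Gja1 1415800_at ran from -0.02 to 2.62, Gja1 1415801_at from -1.68 to 0.95, Gjb2 from -0.03 to 0.99, Gjc1 1447787_x_at from -0.06 to 0.12, Gjd2 1423019_at from -0.78 to 0.62 and Gjd2 1435297_at from -0.51 to 0.08.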
